A study of Mus musculus with 11 samples.

Results

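The genes described here encode the secreted and membrane-bound zinc proteases that cut extracellular matrix and the proteins most closely tied to them. They are the matrix metalloproteases (MMPs), the ADAMTS proteases, the ADAMTS-like proteins, the tissue inhibitors of metalloproteases (TIMPs) and Adamdec1. They were taken by gene symbol, with no measured value used. The bulk table held 52 of them among 24969 gene names, as 23 MMP, 19 ADAMTS, 5 ADAMTS-like and 4 TIMP genes plus Adamdec1. The sorted single-cell library listed the same number, 52 of 27999 genes, and each whole-mesenchyme library listed 51 of 31053, without Mmp1a.

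The study profiled mesenchymal and endothelial populations of mouse small intestine in 8 bulk RNA-seq libraries and 3 droplet single-cell libraries. Muscle was stripped, epithelium was released with EDTA and the remaining tissue was digested with collagenase before flow sorting, per the labels. Telocytes (bright GFP, 2 libraries) and PDGFRAlo stromal cells (dim GFP, 2 libraries) came from PDGFRAH2BEGFP transgenic mice, in which the Pdgfra locus drives a nuclear green fluorescent protein. Blood endothelium (CD31+ LYVE1-, 2 libraries) and lymphatic endothelium (CD31+ LYVE1+, 2 libraries) came from C57BL/6 mice. Strain therefore goes with the stroma to endothelium axis and cannot be told apart from it. The labels give no age. The sorted single-cell library mixed dim and bright GFP cells at 2 to 1. The whole-mesenchyme libraries were 2 replicates of unsorted cells, with no strain named. No label says whether replicates came from separate mice, so each p-value reflects library-to-library spread that could be purely technical.

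Most of these proteases are made as inactive precursors, and removal of the propeptide exposes the catalytic zinc. MMPs are grouped by their classical substrates into gelatinases, collagenases, stromelysins and membrane-type enzymes. The ADAMTS enzymes include proteoglycanases that cut versican and aggrecan, and procollagen N-proteinases that trim fibrillar collagen precursors. ADAMTS-like proteins lack the protease domain and sit in the microfibril network. TIMPs bind the active site of the proteases, and Timp3 is itself bound to the matrix. Adamdec1 is a disintegrin-metalloprotease known from intestinal stroma and macrophages. In the gut, matrix cutting is known to accompany crypt-villus remodelling, vessel growth and inflammation.

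Of the 52 genes, 10 lie in a cluster on mouse chromosome 9 between 7272514 and 7699585 (GENCODE M21 annotation of GRCm38, the build named mm10 by the submitters). Their order is Mmp13, Mmp12, Mmp1b, Mmp3, Mmp1a, Mmp10, Mmp8, Mmp27, Mmp20 and Mmp7. Because neighbours of this cluster turned out to have different patterns across cell classes, their promoters were compared in the RefSeq table of GRCm38.p6. The letters TGAGTCA or the reverse complement TGACTCA, the site classically bound by AP-1 factors, were searched in the 250 bases before each start. The motif was found in 1466 of 32851 promoters (4.46%). Promoters were listed for 36 of the 52 genes, 39 promoters in all, and 7 genes held the motif in a promoter. The 4.46% counts promoters, whereas the 7 of 36 counts genes. All 7 were cluster genes, namely Mmp13, Mmp12, Mmp3, Mmp10, Mmp1a, Mmp1b and Mmp7, whereas 0 of the 26 matched genes outside the cluster held it. Mmp12 and Mmp7 each had another listed promoter without the motif, at chr9:7344147-7344446 for Mmp12 and chr9:7692091-7692390 for Mmp7. A match is a run of letters and not a measured binding site. The 120 bases before the start, on the plus strand, are shown for the 4 of these genes that were well detected, with the motif in capitals. They lie at chr9:7272394-7272513 for Mmp13, chr9:7347254-7347373 for Mmp12, chr9:7445702-7445821 for Mmp3 and chr9:7502222-7502341 for Mmp10. The Mmp12 bases come from its promoter with the motif.
Mmp13: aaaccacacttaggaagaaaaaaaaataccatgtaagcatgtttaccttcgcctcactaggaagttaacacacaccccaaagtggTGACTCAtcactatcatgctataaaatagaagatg
Mmp12: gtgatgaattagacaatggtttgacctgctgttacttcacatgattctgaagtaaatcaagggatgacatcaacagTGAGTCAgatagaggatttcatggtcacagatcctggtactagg
Mmp3: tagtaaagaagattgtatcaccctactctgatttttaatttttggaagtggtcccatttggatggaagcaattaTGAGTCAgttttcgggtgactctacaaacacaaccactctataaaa
Mmp10: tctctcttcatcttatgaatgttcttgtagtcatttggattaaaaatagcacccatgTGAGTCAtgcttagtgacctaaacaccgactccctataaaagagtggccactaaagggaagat
On the printed strand Mmp12, Mmp3 and Mmp10 carry TGAGTCA and Mmp13 carries the reverse complement TGACTCA. The motif starts 35 bases before the start in Mmp13, 44 in Mmp12, 46 in Mmp3 and 63 in Mmp10. The genes themselves were highest in different places, as given below: Mmp13 in macrophage-gated cells, Mmp12 in dendritic- or macrophage-gated cells by replicate, Mmp3 in CD81-type fibroblasts and Mmp10 in telocytes and the remaining fibroblasts. Mmp1a and Mmp1b hold the motif too and had no bulk count, and Mmp7 reached at most 11.5 CPM.

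Bulk libraries held between 8549348 and 55382442 counts. After filtering, the single-cell libraries held 3845 sorted and 6128 and 5927 whole-mesenchyme cells, with median depths of 4836, 5210 and 5171 UMIs (unique molecular identifiers, each standing for 1 captured transcript). Levels by class are UMI CPM, the summed UMIs of a gene per 1000000 UMIs of the class in that library. Kept cells shared 7 barcodes between the whole-mesenchyme libraries and at most 1 with the sorted library. Cell classes were gated from marker lists that hold no protease of these families. The bulk libraries carried the markers of their labels, but not only those. Summed telocyte markers stood at 3821 and 3912 CPM (counts per 1000000, on scaled library sizes) in telocytes and at 459.5 and 457.3 CPM in PDGFRAlo cells, where the CD81-type markers were high (8620 and 12290 CPM, against 101 and 133). The summed blood endothelium markers stood at 69.4 and 47.2 CPM in the telocyte libraries and at 3004 and 1000 in the PDGFRAlo libraries. The blood endothelium libraries held them at 16830 and 17410 CPM and the lymphatic libraries at 2307 and 2372. The summed macrophage markers stood at 29.9 and 17.5 in telocytes, 504.6 and 209.5 in PDGFRAlo cells, 2668 and 1924 in blood endothelium and 7198 and 9372 in lymphatic endothelium. Plasma cell markers reached 172400 and 67140 in the lymphatic libraries, against 5172 at most elsewhere. In a bulk library, fewer cells of a type and less RNA per cell cannot be told apart. Exons of Mmp7, Mmp12, Mmp19, Mmp28, Adamts4, Adamts7, Adamts8, Adamts9, Timp3, Timp4 and Mmp11 overlap another gene's exons on the opposite strand, so bulk reads could be shared if counting ignored strand, which the labels do not say.

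Across the bulk libraries the families were mainly stromal. Of the 45 genes that passed the low-count filter, 32 (71.1%) were higher in PDGFRA stroma (the mean of telocytes and PDGFRAlo cells) than in endothelium and 7 (15.6%) were lower, by edgeR's quasi-likelihood test with Benjamini-Hochberg adjustment over 14893 genes at an adjusted p under 0.05. The same rule called 28.8% of all genes higher and 31.7% lower. The median log2 difference was 2.79 over the 45 genes and -0.07 over all genes tested. All 5 ADAMTS-like genes, 16 of 17 tested ADAMTS genes, 8 of 18 MMPs, Timp1, Timp2 and Adamdec1 were higher in stroma. The 7 lower genes were Mmp7, Mmp9, Mmp12, Mmp13, Mmp15, Mmp28 and Timp4. The calls of Mmp15 and Mmp28 were lost when single libraries were left out, with adjusted p up to 0.184 and 0.0885. The higher calls of Mmp16, Adamts9, Adamts18 and Adamts19 were lost likewise, with adjusted p of up to 0.81 (Mmp16), 0.13 (Adamts9), 0.9998 (Adamts18) and 0.934 (Adamts19), which left 28 higher and 5 lower calls in every alternative.

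**Figure D1:**
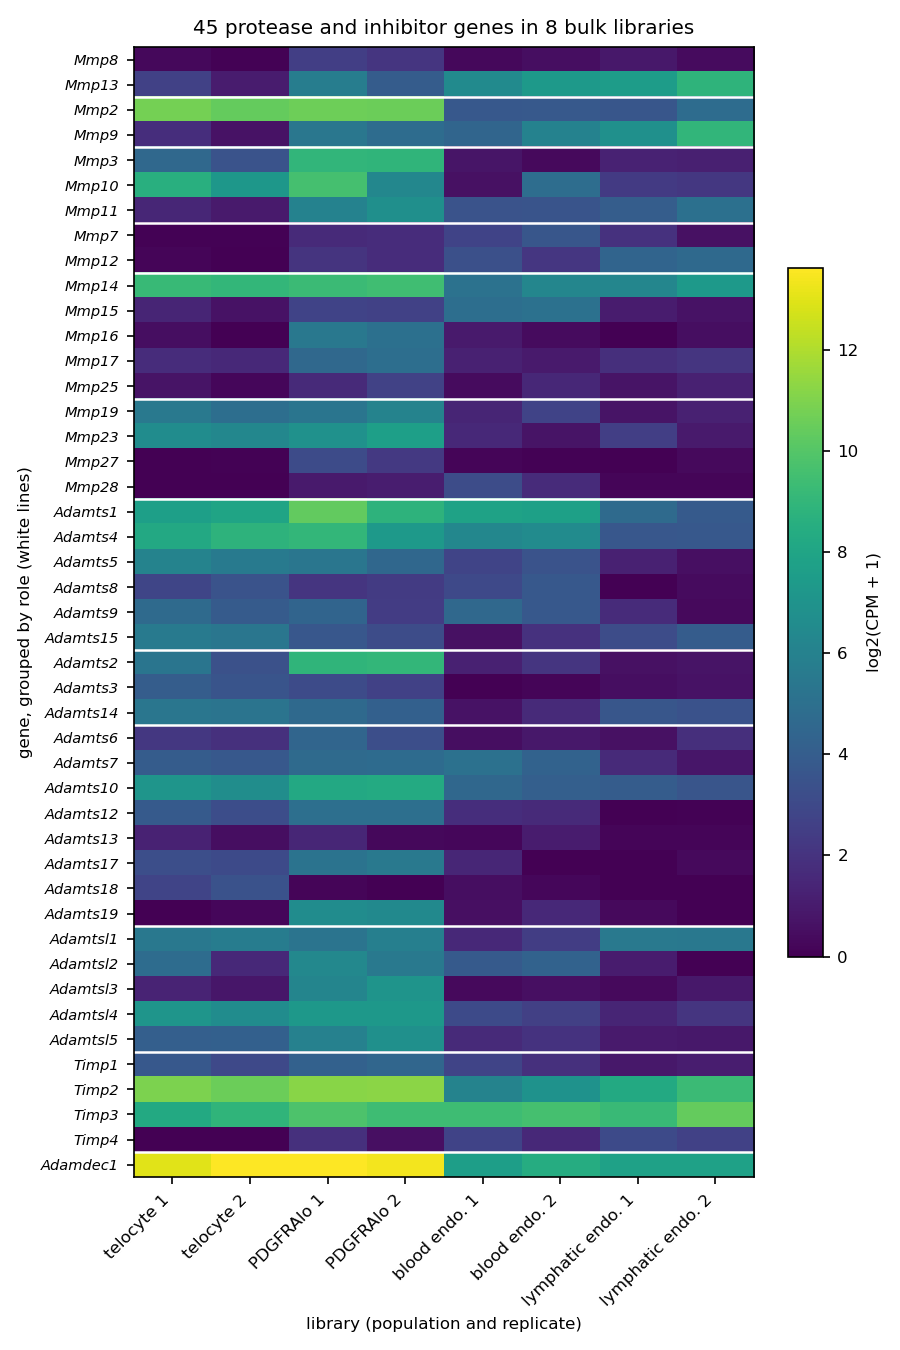
Heat map of log2(CPM + 1) for the 45 genes tested (rows, grouped by role with white lines) in the 8 bulk libraries (columns, population and replicate). Adamdec1, Mmp2, Timp2 and Mmp14 are bright in all 4 stromal columns, while Mmp12 and Mmp13 are brighter in the endothelial columns. Mmp9 is brightest in the lymphatic columns, and its blood endothelium and PDGFRAlo columns overlap.

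Adamdec1, on chromosome 14 from 68563380 to 68582095, stood at 8296 and 12577 CPM in telocytes and at 12295 and 10841 CPM in PDGFRAlo cells. The endothelial libraries held 198 and 338 CPM (blood) and 223 and 221 CPM (lymphatic). All 4 stromal libraries lay above all 4 endothelial ones, with a log2 difference of 5.49 ± 0.40 (SE; edgeR adjusted p = 9.41e-06), and the stromal populations overlapped (log2 -0.15 ± 0.47, adjusted p = 0.903). Per kilobase of exon, its mean level was 4274 CPM in telocytes and 4737 CPM in PDGFRAlo cells. On the same per-kilobase scale Mmp2 stood at 466 and 462 CPM and Timp2 at 441 and 606 CPM.

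In whole mesenchyme Adamdec1 was most abundant in the fibroblasts that passed neither the telocyte nor the CD81-type gate. Those remaining fibroblasts held 11690 and 11240 UMI CPM in replicates 1 and 2. Telocyte-gated cells held 6086 and 6375, and CD81-type fibroblasts, which carry adventitial markers such as Pi16 and Grem1, held 6288 and 6104. Telocytes and CD81-type fibroblasts overlapped. On the log2 scale telocytes lay 0.61 ± 0.08 below the unweighted mean of the CD81-type and remaining classes (log2 -0.61, edgeR adjusted p = 6.64e-08). The bulk sorts did not separate these groups for Adamdec1, and the bulk PDGFRAlo gate is not the same population as the gated fibroblasts. The sorted library, which has no replicate, gave 5461 UMI CPM in telocytes (exact Poisson 95% interval 5396 to 5527, counting error only), 5939 in CD81-type and 10480 in the remaining fibroblasts.

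Macrophage-gated cells were the next class for Adamdec1 outside the stroma, at 789.9 and 687.9 UMI CPM, with a UMI in 68.8% and 65.7% of cells. Thinned to 2000 UMIs per cell, the shares were 57.9% and 60.5%. T and innate lymphoid cells, taken as a class that should lack the gene, had a UMI in 13.3% and 10.9% of cells and a level of 33.3 and 28.1 UMI CPM. Near-empty droplets of 20 UMIs or fewer, which hold free RNA, carried Adamdec1 at 1371 and 1372 UMI CPM. The macrophage level was lower than that of gated fibroblasts (log2 -3.33 ± 0.10, adjusted p = 5.35e-26). Blood endothelium held 38.2 and 16.1 UMI CPM, lymphatic endothelium 24.1 and 32.0 UMI CPM and glia 32.9 and 46.5 UMI CPM. Smooth-muscle-gated cells held 5317 and 5243 UMI CPM, and the median such cell also carried 4 of the 8 PDGFRA stroma markers.

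Between the stromal sorts, many of the MMPs were lower in telocytes. Of the 45 genes tested, 1 (2.22%) was higher in telocytes and 20 (44.4%) were lower, where the same rule called 2.77% of all genes higher and 12.1% lower. The median log2 difference was -1.47, against -0.04 over all genes. By family, 12 of 18 MMPs were lower, 5 of 17 ADAMTS genes were lower with 1 higher (median log2 difference -0.05), 2 of 5 ADAMTS-like genes were lower, and of the TIMPs only Timp4 of 4 was lower. In 9 of the 20 lower genes the call held in every alternative: Mmp3, Mmp11, Mmp12, Mmp16, Mmp17, Adamts2, Adamts19, Adamtsl3 and Adamtsl5. The counts of lower genes fell to 13 without telocyte replicate 1, to 10 without telocyte replicate 2 and to 13 without PDGFRAlo replicate 1. A missing call does not show that levels were alike.

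**Figure D2:**
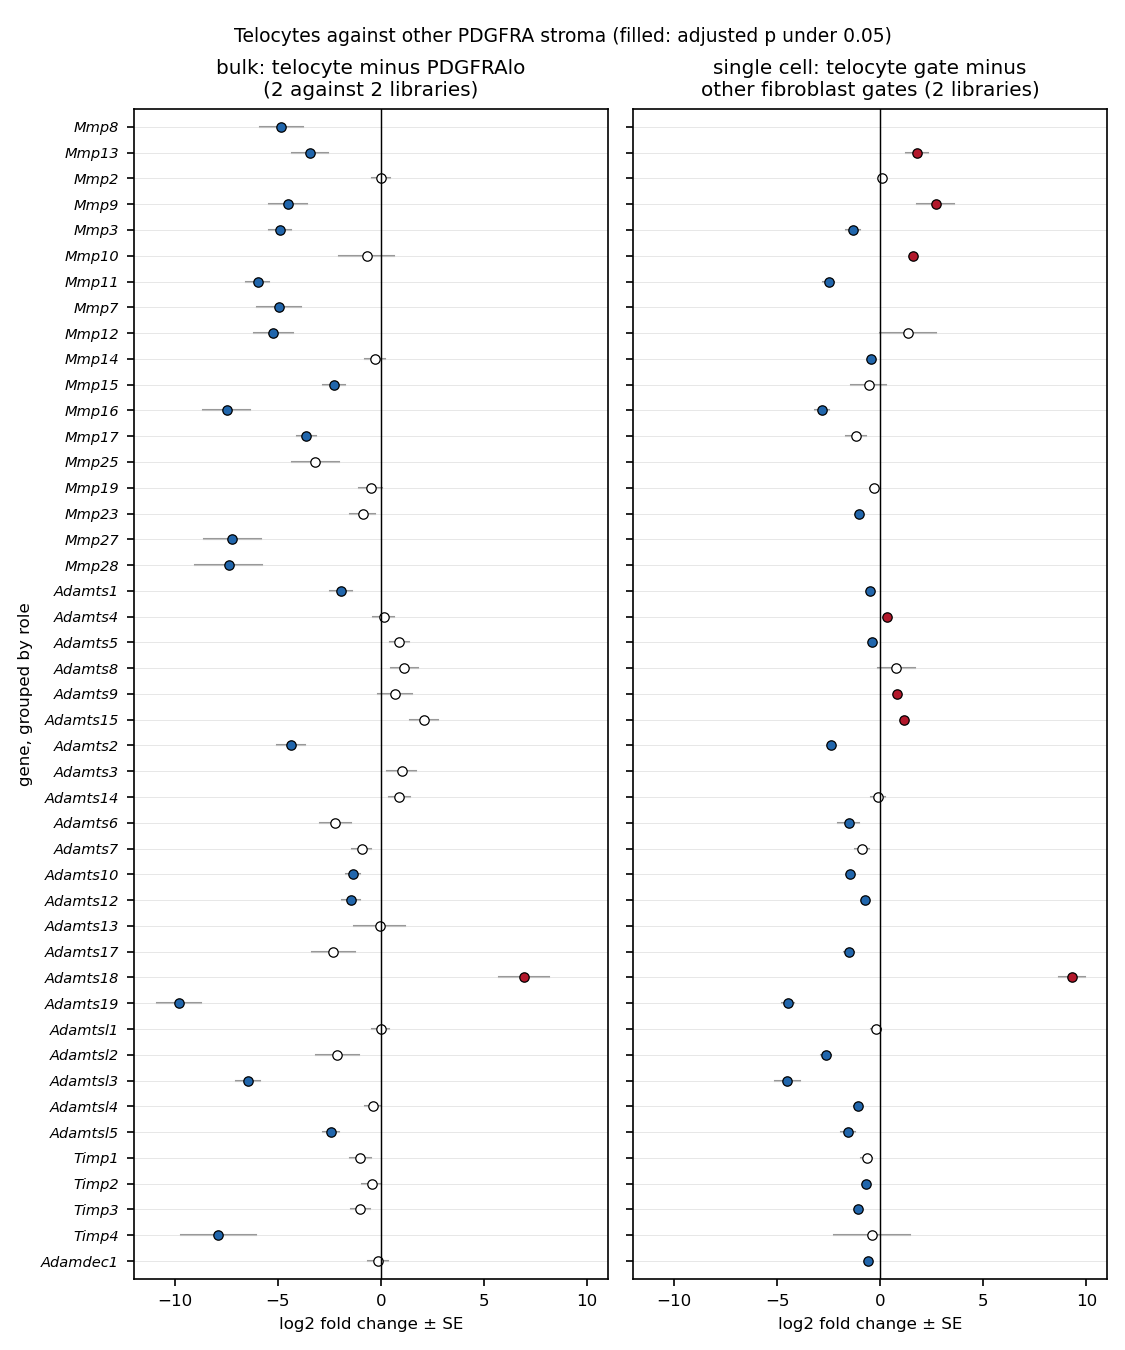
Log2 difference with its standard error (x axis) for each gene (y axis, grouped by role), telocytes minus PDGFRAlo cells in bulk and telocyte-gated cells minus other gated fibroblasts in whole mesenchyme; filled points have an adjusted p under 0.05. Most filled points lie left of 0 in both panels, and Adamts18 lies right of 0 in both.

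The gelatinase Mmp2, which cleaves denatured collagen and type IV collagen, did not separate the stromal sorts. It stood at 1775 and 1370.0 CPM in telocytes and at 1586 and 1526 CPM in PDGFRAlo cells, and at 11.3 to 26.8 CPM in the endothelial libraries. The stromal levels overlapped (log2 0.02 ± 0.44, adjusted p = 0.992) and all lay above endothelium (log2 6.65, adjusted p = 4.41e-06). In whole mesenchyme Mmp2 was at 696 and 700.2 UMI CPM in telocytes, 526 and 504 in CD81-type fibroblasts and 692 and 649.5 in the remaining fibroblasts. The difference between telocytes and other fibroblasts was small there too (log2 0.07, adjusted p = 0.712). Blood endothelium held 1.27 and 9.88 UMI CPM and lymphatic endothelium 3.02 and 3.2.

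The other gelatinase, Mmp9, had the opposite distribution. Its bulk levels were 2.42 and 0.605 CPM in telocytes, 41 and 27.1 CPM in PDGFRAlo cells, 20.7 and 64.4 CPM in blood endothelium and 115 and 504 CPM in lymphatic endothelium. It was lower in telocytes than in PDGFRAlo cells (log2 -4.51 ± 0.93, adjusted p = 0.0107, and 0.0728 without telocyte replicate 2). It was lower in blood than in lymphatic endothelium (log2 -2.87 ± 0.82, adjusted p = 0.0346, and up to 0.275 when blood replicate 1 or lymphatic replicate 2 was left out). Each of these differences ran in the direction of the summed macrophage markers given above, and the part these cells had in the bulk differences was not tested.

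The collagenase Mmp13 followed the same order. It stood at 5.2 and 1.03 CPM in telocytes, 53.2 and 14.5 CPM in PDGFRAlo cells, 91 and 156 CPM in blood endothelium and 182 and 464 CPM in lymphatic endothelium. The stromal sorts did not overlap (log2 -3.45 ± 0.87, adjusted p = 0.027), though the call was lost without telocyte replicate 2 or PDGFRAlo replicate 1 (adjusted p up to 0.156). The endothelial sorts did not overlap either, without passing the test (log2 -1.39, adjusted p = 0.227). Mmp12, the macrophage elastase, stood at 0.143 and 0 CPM in telocytes, 3.17 and 2.26 CPM in PDGFRAlo cells, 8.98 and 3.52 CPM in blood endothelium and 19.8 and 23.9 CPM in lymphatic endothelium. Its telocyte libraries held 2 counts against 97 in PDGFRAlo cells (40.3-fold lower, counting interval 10.9 to 337, adjusted p = 0.00582).

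In whole mesenchyme these 3 enzymes were highest in myeloid classes. Macrophage-gated cells held Mmp13 at 1241 and 1029 UMI CPM, with a UMI in 77.3% and 63.0% of cells. Mmp9 stood there at 689 and 601 UMI CPM, in 56.2% and 50.9% of cells. Both lay far above gated fibroblasts (Mmp13 log2 9.60 ± 0.13, adjusted p = 9.00e-34; Mmp9 log2 10.61 ± 0.23, adjusted p = 1.51e-27). In telocyte-gated cells Mmp13 was at 5.97 and 6.68 and Mmp9 at 0.852 and 5.85 UMI CPM, which is at or below their levels in near-empty droplets (16.4 and 15.8 for Mmp13, 11.7 and 5.91 for Mmp9). Both were nevertheless called higher in telocytes than in other fibroblasts (log2 1.76, adjusted p = 0.0123, and log2 2.70, adjusted p = 0.0251), the reverse of the bulk sorts, and both calls were lost under a stricter gate and after thinning. Mmp12 was at 80.9 and 64.1 UMI CPM in dendritic-gated cells and at 39.0 and 82.8 in macrophage-gated cells, so the order of these classes differed between replicates. The top 10% of dendritic cells held 95.4% and 96.3% of that class's Mmp12 UMIs, and 5 macrophages in each library had a UMI. Ungated cells held 296 and 374 Mmp12 UMIs against 197 and 162 in dendritic-gated cells, of whose 161 cells in each library 111 and 92 lay near the gate's limit.

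**Figure D3:**
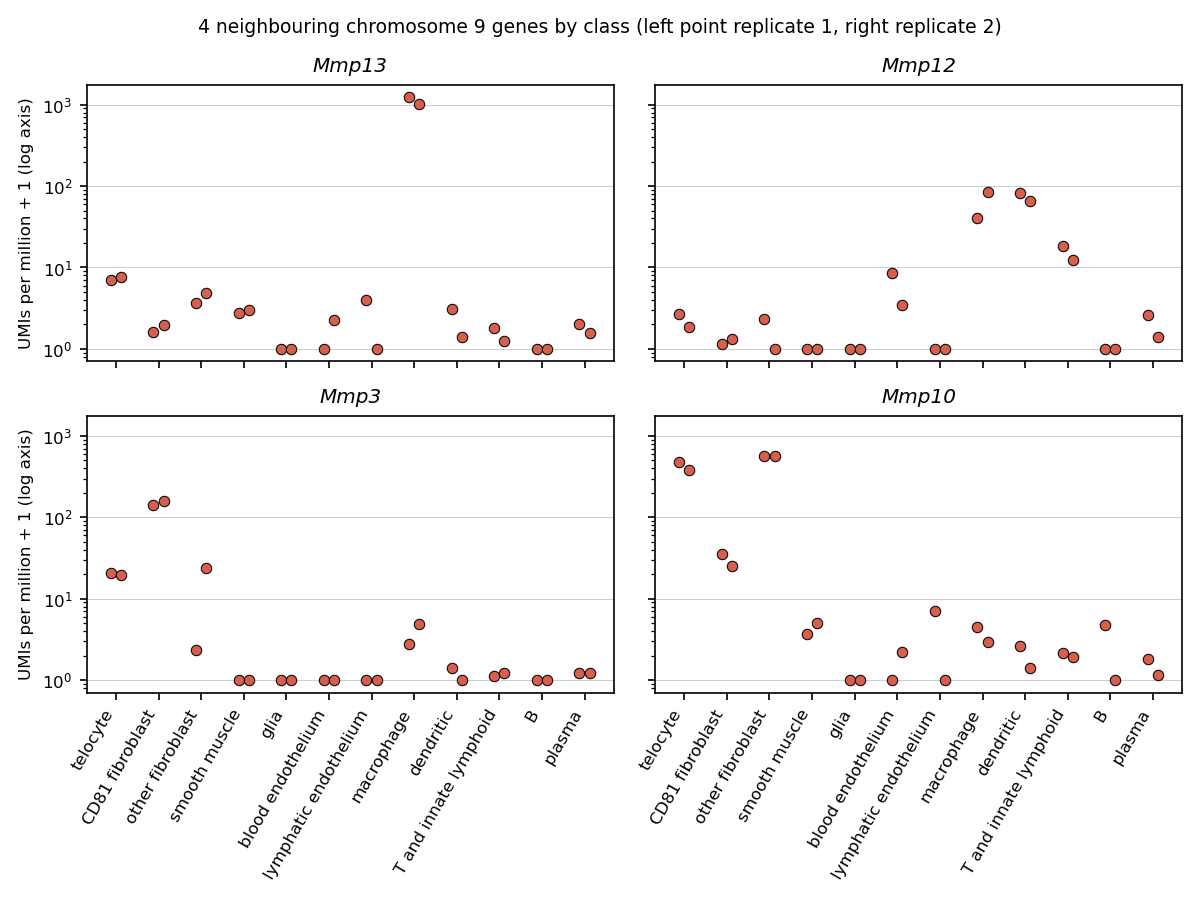
Levels of 4 neighbouring chromosome 9 genes by marker-gated class in whole mesenchyme (y axis, UMI CPM + 1 on a log axis; left point replicate 1, right point replicate 2). Mmp13 peaks in macrophages, Mmp12 in dendritic cells and macrophages, Mmp3 in CD81-type fibroblasts, and Mmp10 in telocytes and the remaining fibroblasts.

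In total, macrophage-gated cells were higher than gated fibroblasts for 4 of 38 genes tested (10.5%) and lower for 30 (78.9%), where 23.9% of all 12445 genes were higher and 32.3% lower. The fourth higher gene was Mmp14, the membrane-type enzyme that activates pro-Mmp2 at the cell surface. Mmp14 stood at 447 and 428 UMI CPM in macrophages, 247 and 238 in telocytes, 252 and 237 in CD81-type fibroblasts and 344 and 338 in the remaining fibroblasts. The macrophage difference was 0.78 ± 0.09 on the log2 scale (adjusted p = 2.98e-09). Among endothelial cells Mmp14 was at 166 and 163 UMI CPM in the lymphatic and at 6.37 and 13.6 in the blood class, a log2 difference of -3.75 ± 0.33 (adjusted p = 1.87e-11). The bulk endothelial libraries gave 33.7 and 76.2 CPM (blood) and 74.4 and 163 CPM (lymphatic), which overlapped (log2 -1.11, adjusted p = 0.134). In bulk stroma Mmp14 was at 572 and 514 CPM in telocytes and 622 and 698 CPM in PDGFRAlo cells, without a call (log2 -0.28, adjusted p = 0.808). The single-cell fit called it lower in telocytes (log2 -0.43 ± 0.08, adjusted p = 5.78e-05), although telocytes and CD81-type fibroblasts overlapped. The sorted library, which has no replicate, had the other order. It gave 336 UMI CPM in telocytes, 229 in CD81-type and 314 in the remaining fibroblasts.

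The stromelysins, which degrade a broad range of matrix proteins and can activate other MMPs, split between fibroblast classes. Mmp3 stood at 23.0 and 10.4 CPM in bulk telocytes and at 505 and 487 CPM in PDGFRAlo cells, with 0.251 to 1.49 CPM in endothelium. The stromal groups were far apart (log2 -4.90 ± 0.54, adjusted p = 0.000544). In whole mesenchyme Mmp3 was at 141 and 159.9 UMI CPM in CD81-type fibroblasts, 19.6 and 18.4 in telocytes and 1.32 and 22.7 in the remaining fibroblasts, the last differing widely between replicates. Few cells carried it: 15.6% and 17.5% of CD81-type cells had a UMI, and the top 10% of cells held 94.4% and 93.1% of that class's Mmp3 UMIs. In the sorted library the same class held Mmp3 at 384.5 UMI CPM, with 86.1% of UMIs in the top 10% of cells, and telocytes held 12.6. The remaining fibroblasts held 156 UMI CPM there, with 95.7% of UMIs in the top 10% of cells. Telocytes were called lower than the other gated fibroblasts (log2 -1.32 ± 0.35, adjusted p = 0.00487), and the call was lost after thinning (adjusted p = 0.100).

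Mmp10, the neighbouring stromelysin, did not follow Mmp3. Its bulk levels were 383 and 145 CPM in telocytes and 777 and 78.3 CPM in PDGFRAlo cells, so replicates of a group differed more than the groups (log2 -0.70 ± 1.34, adjusted p = 0.83). In whole mesenchyme the 2 libraries were close: telocytes held 481 and 378 UMI CPM, the remaining fibroblasts 560.1 and 559 and CD81-type fibroblasts 34.3 and 24.2. Telocytes were higher than the unweighted mean of the CD81-type and remaining classes on the log scale (log2 1.56 ± 0.09, adjusted p = 2.17e-16). The remaining fibroblasts alone lay above the telocytes in both libraries. A UMI was found in 33.1% and 32.9% of telocytes, 39.2% and 39.6% of remaining fibroblasts and 4.79% and 3.84% of CD81-type cells. The top 10% of telocytes held 72.0% and 78.4% of Mmp10 UMIs. The sorted library gave 265 UMI CPM in telocytes, 90.5 in CD81-type and 841.5 in the remaining fibroblasts.

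Mmp11, a stromelysin activated inside the cell by furin, was lower in telocytes in both assays. In bulk it stood at 1.78 and 0.969 CPM in telocytes, 64.0 and 108 CPM in PDGFRAlo cells, 10.4 and 10.4 CPM in blood and 15.3 and 32.1 CPM in lymphatic endothelium (telocytes against PDGFRAlo, log2 -5.98 ± 0.56, adjusted p = 0.000337). Its exons overlap those of Chchd10 on the other strand. In whole mesenchyme it was at 10.2 and 5.85 UMI CPM in telocytes, 34.3 and 32.3 in CD81-type and 45.4 and 53.1 in the remaining fibroblasts (log2 -2.51, adjusted p = 3.87e-09).

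Among the remaining MMPs of the chromosome 9 cluster, all levels were low. Mmp8, the neutrophil collagenase, was at 0.214 and 0.0605 CPM in telocytes, 4.76 and 3.23 CPM in PDGFRAlo cells and 0.213 to 0.81 CPM in endothelium (log2 -4.83, adjusted p = 0.0124). Mmp7, matrilysin, was at 0.0713 and 0.0605 CPM in telocytes, 2.11 and 2.31 CPM in PDGFRAlo cells, 5.72 and 11.5 CPM in blood and 2.84 and 0.538 CPM in lymphatic endothelium (2 telocyte counts against 82, 34.1-fold lower, counting interval 9.13 to 286, adjusted p = 0.0138). Mmp27 had 1 telocyte count against 198 in PDGFRAlo cells (164-fold lower, counting interval 29.2 to 6528, adjusted p = 0.00709). These calls were lost when single stromal libraries were left out: Mmp8 reached an adjusted p of 0.134, Mmp7 of 0.102 and Mmp27 of 0.0556. The summed neutrophil markers stood at 0.499 and 0.0605 CPM in telocytes and 7.53 and 17.8 CPM in PDGFRAlo cells. They were higher in endothelium, at 226 and 202 CPM in blood and 75.5 and 21.4 CPM in lymphatic libraries, and their part was not tested. The sorted library held 0 neutrophil-gated cells. Its UMIs in telocytes, CD81-type and remaining fibroblasts were 0, 12 and 0 for Mmp8. They were 0, 26 and 5 for Mmp27 and 3, 0 and 11 for Mmp7.

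The membrane-type enzymes other than Mmp14 were low in telocytes. Mmp16 stood at 0.428 and 0 CPM in telocytes and at 42.9 and 32.1 CPM in PDGFRAlo cells, with at most 0.946 CPM in endothelium (log2 -7.49 ± 1.13, adjusted p = 0.00229). In whole mesenchyme Mmp16 was at 6.82 and 5.01 UMI CPM in telocytes, 39.2 and 40.1 in CD81-type and 32.2 and 38.1 in the remaining fibroblasts (log2 -2.83, adjusted p = 1.68e-08). Mmp17, a GPI-anchored form, stood at 2.28 and 2.00 CPM in telocytes, 23.1 and 29.7 CPM in PDGFRAlo cells and 0.964 to 3.23 CPM in endothelium (log2 -3.62 ± 0.47, adjusted p = 0.00112). Glia held Mmp17 at 148 and 83.8 UMI CPM, its highest class. The sorted library, with 0 glia-gated cells, gave 0.408 UMI CPM in telocytes, 4.97 in CD81-type and 4.69 in the remaining fibroblasts. The summed glial markers stood at 2.71 and 1.45 CPM in bulk telocytes and at 31.2 and 14.7 CPM in PDGFRAlo cells, and their part in the bulk difference was not tested. Mmp15 stood at 1.64 and 0.605 CPM in telocytes and 5.68 and 5.18 CPM in PDGFRAlo cells (log2 -2.28 ± 0.54, adjusted p = 0.0196, and up to 0.169 without telocyte replicate 2 or PDGFRAlo replicate 1). The blood endothelial libraries held Mmp15 at 29.4 and 33.4 CPM, and the summed blood endothelium markers moved with it in the stroma, whose part was not tested. In the single-cell edgeR fit neither Mmp17 (log2 -1.19, adjusted p = 0.0873) nor Mmp15 (log2 -0.56, adjusted p = 0.719) was called between telocytes and other fibroblasts. Mmp25 was not called in bulk (log2 -3.18, adjusted p = 0.099), and Mmp24 did not pass the bulk filter.

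Mmp19 and Mmp23, which have no single classical substrate, were stromal without a call between the bulk stromal sorts. Mmp23 stood at 96.4 and 77.9 CPM in telocytes, 116 and 208 CPM in PDGFRAlo cells and 0.67 to 4.73 CPM in endothelium (telocytes against PDGFRAlo, log2 -0.90, adjusted p = 0.452). Whole mesenchyme gave 92.0 and 76.9 UMI CPM in telocytes, 176 and 174 in CD81-type and 127 and 135 in the remaining fibroblasts, and there telocytes were called lower (log2 -1.02 ± 0.11, adjusted p = 4.31e-09). Mmp19 stood at 45 and 29.4 CPM in telocytes and 37.8 and 66.8 CPM in PDGFRAlo cells, which overlapped (adjusted p = 0.688). Mmp28 had 0 telocyte counts against 40 in PDGFRAlo cells, at least 11.1-fold lower (adjusted p = 0.0167, and up to 0.0948 without a telocyte library).

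Among the proteoglycanases, Adamts1 and Adamts4 were the main stromal and vascular members by UMIs. Adamts1 stood at 209 and 247 CPM in telocytes, 1323 and 441 CPM in PDGFRAlo cells, 231 and 211 CPM in blood endothelium and 24.8 and 13.3 CPM in lymphatic endothelium. It was lower in telocytes than in PDGFRAlo cells (log2 -1.95 ± 0.54, adjusted p = 0.0385), but 6 of the alternatives lost this call, with an adjusted p of up to 0.293, and the higher PDGFRAlo library is also the one with more blood endothelium marker counts, whose part was not tested. In whole mesenchyme Adamts1 was at 275 and 297 UMI CPM in telocytes, 320 and 336 in CD81-type and 350.1 and 405 in the remaining fibroblasts (log2 -0.48, adjusted p = 0.00458). Blood endothelium held 904.5 and 1105 UMI CPM, glia 549 and 1154 and pericytes 1494 and 1259, the last from 12 and 23 cells and not tested.

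Adamts4 did not differ between the bulk stromal sorts, with 298 and 454 CPM in telocytes and 525 and 166 CPM in PDGFRAlo cells (log2 0.12, adjusted p = 0.929). In whole mesenchyme it was at 433 and 469 UMI CPM in telocytes, 304 and 293 in CD81-type and 323 and 365 in the remaining fibroblasts. The difference was small and called higher in telocytes (log2 0.31 ± 0.07, adjusted p = 0.00126), and was lost after thinning (adjusted p = 0.101). Adamts5 stood at 66.2 and 47.3 CPM in telocytes and 39.5 and 22.2 CPM in PDGFRAlo cells, not called (log2 0.88, adjusted p = 0.296), although the groups did not overlap. Adamts8 was likewise at 6.2 and 10.3 CPM in telocytes and 3.37 and 4.16 CPM in PDGFRAlo cells (log2 1.13, adjusted p = 0.353). The single-cell fit placed Adamts5 lower in telocytes (log2 -0.42, adjusted p = 0.0185), and a stricter gate lost that call (adjusted p = 0.724).

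Adamts9 and Adamts15, like Adamts4, were called higher in telocyte-gated cells of whole mesenchyme than in the other fibroblasts. Adamts9 was at 101 and 117 UMI CPM in telocyte-gated cells, 41.7 and 44.0 in CD81-type and 56.5 and 85.5 in the remaining fibroblasts (log2 0.80 ± 0.13, adjusted p = 6.81e-06), and this call held in every alternative tried. The bulk sorts gave 25.2 and 14.0 CPM in telocytes and 20.0 and 4.3 CPM in PDGFRAlo cells, which overlap. Adamts15 stood at 57.1 and 58.5 UMI CPM in telocytes, 15.3 and 12.7 in CD81-type and 37.9 and 35.3 in the remaining fibroblasts (log2 1.17 ± 0.18, adjusted p = 4.17e-06), and the call was lost after thinning (adjusted p = 0.139). Bulk telocytes held Adamts15 at 46.5 and 39.1 CPM and PDGFRAlo cells at 12.2 and 8.09 CPM, which do not overlap but did not pass the test (log2 2.08 ± 0.67, adjusted p = 0.069). The sorted library, which has no replicate, had Adamts15 but not Adamts4 or Adamts9 highest in telocytes. Its UMI CPM in telocytes, CD81-type and remaining fibroblasts were 8.77, 2.30 and 5.87 for Adamts15. They were 65.2, 71.2 and 77.4 for Adamts4 and 14.3, 10.9 and 14.9 for Adamts9.

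The procollagen N-proteinases differed from each other. Adamts2, which trims the amino-terminal propeptides of fibrillar procollagens, stood at 38.6 and 9.57 CPM in telocytes and at 482 and 526 CPM in PDGFRAlo cells, with at most 3.23 CPM in endothelium (log2 -4.39 ± 0.68, adjusted p = 0.00255). In whole mesenchyme Adamts2 was at 49.4 and 53.5 UMI CPM in telocytes, 253 and 260.3 in CD81-type and 198 and 233 in the remaining fibroblasts (log2 -2.37 ± 0.12, adjusted p = 5.57e-18). Its relatives were not lower: Adamts3 stood at 15.1 and 10.5 CPM in telocytes and 7.73 and 5.13 CPM in PDGFRAlo cells (log2 1.00, adjusted p = 0.473), and Adamts14 at 39.1 and 36.4 CPM and 24.0 and 16.8 CPM (log2 0.89, adjusted p = 0.346). Neither pair of groups overlapped, and neither passed the test.

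Adamts18 and Adamts19 lay at the ends of the range. Adamts18, an ADAMTS of little-known substrate on chromosome 8 from 113697126 to 113848738, stood at 6.06 and 9.63 CPM in telocytes and at 0.132 and 0 CPM in PDGFRAlo cells, with at most 0.402 CPM in endothelium. The telocyte libraries held 244 counts against 2 (147-fold higher, counting interval 40.2 to 1220.0, adjusted p = 0.00678, and 0.0513 without telocyte replicate 2). In whole mesenchyme Adamts18 was at 34.9 and 41.8 UMI CPM in telocytes and had 0 UMIs in the other gated fibroblasts, so telocytes were at least 216-fold higher (91 UMIs against a floor of 3 over the group, adjusted p = 4.26e-12). Of the 94 Adamts18 UMIs in gated whole-mesenchyme cells, 91 were in the telocyte class. The sorted library held 22 UMIs of Adamts18 in 965 telocytes, 0 in 2156 CD81-type cells and 2 in 701 remaining fibroblasts.

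Adamts19 was the reverse. It stood at 0 and 0.182 CPM in telocytes and at 96.4 and 88.6 CPM in PDGFRAlo cells, with at most 1.93 CPM in endothelium. The counts were 3 against 3377 (935-fold lower, counting interval 320 to 4536, adjusted p = 0.000544). In whole mesenchyme Adamts19 was at 4.26 and 3.34 UMI CPM in telocytes, 90.8 and 87.4 in CD81-type and 63.1 and 67.6 in the remaining fibroblasts (log2 -4.49 ± 0.28, adjusted p = 1.18e-14). The sorted library gave 38.9 UMI CPM in CD81-type and 30.9 in the remaining fibroblasts.

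The other ADAMTS genes were lower in telocytes or not called. Adamts10, a microfibril-associated member, stood at 136 and 103 CPM in telocytes and 301 and 314 CPM in PDGFRAlo cells (log2 -1.36 ± 0.33, adjusted p = 0.0215, and up to 0.240 without one of the stromal libraries). In whole mesenchyme Adamts10 was at 57.1 and 52.6 UMI CPM in telocytes, 127 and 132 in CD81-type and 136 and 141 in the remaining fibroblasts (log2 -1.47, adjusted p = 1.10e-11). Adamts12 stood at 13.5 and 8.29 CPM in telocytes and 30.3 and 29.9 CPM in PDGFRAlo cells (log2 -1.47 ± 0.43, adjusted p = 0.0497, lost in 8 of the alternatives with an adjusted p of up to 0.379). Adamts17 stood at 8.77 and 7.39 CPM and 35.1 and 45.2 CPM (log2 -2.31, adjusted p = 0.197) and Adamts6 at 3.64 and 2.66 CPM and 20.6 and 8.59 CPM (log2 -2.21, adjusted p = 0.0913). Both were called lower in telocytes in whole mesenchyme, at adjusted p = 9.40e-06 for Adamts17 and 0.0276 for Adamts6, the latter lost under a stricter gate and after thinning. Adamts6 was highest in smooth-muscle-gated cells, at 61.5 and 46.6 UMI CPM.

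Among the ADAMTS-like proteins, Adamtsl3 and Adamtsl5 were lower in telocytes. Adamtsl3 stood at 1.57 and 0.787 CPM in telocytes, 72.0 and 134 CPM in PDGFRAlo cells and at most 0.807 CPM in endothelium (log2 -6.46 ± 0.60, adjusted p = 0.000337). In whole mesenchyme it had 2 UMIs in telocytes against 535 in the other gated fibroblasts (37.6-fold lower, counting interval 10.4 to 311). CD81-type cells held Adamtsl3 at 41.1 and 38.4 UMI CPM and the remaining fibroblasts at 7.94 and 8.69. Adamtsl5 stood at 16.3 and 16.8 CPM in telocytes and 63.3 and 113 CPM in PDGFRAlo cells (log2 -2.42 ± 0.38, adjusted p = 0.00281).

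Adamtsl2, a fibrillin-binding member, was at 26.7 and 2.00 CPM in telocytes and 79.7 and 45.1 CPM in PDGFRAlo cells, not called (log2 -2.12, adjusted p = 0.255). The whole-mesenchyme classes were closer within a group, with 12.8 and 10.9 UMI CPM in telocytes, 50.5 and 52.5 in CD81-type and 76.3 and 87.4 in the remaining fibroblasts (log2 -2.63, adjusted p = 1.32e-10). Adamtsl4 stood at 136 and 97.1 CPM in telocytes and 153 and 154 CPM in PDGFRAlo cells (adjusted p = 0.609). Adamtsl1 overlapped between the stromal sorts, at 42.2 and 52.0 CPM in telocytes and 36.5 and 58.5 CPM in PDGFRAlo cells.

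The inhibitors Timp2 and Timp3 were abundant in the stroma, and Timp1 and Timp4 were low. Timp2, which also takes part in pro-Mmp2 activation by Mmp14, stood at 1939.5 and 1498 CPM in telocytes and 2325 and 2397 CPM in PDGFRAlo cells (log2 -0.46, adjusted p = 0.649). Whole mesenchyme gave 458 and 488 UMI CPM in telocytes, 836 and 827 in CD81-type and 544 and 549 in the remaining fibroblasts, and telocytes were called lower (log2 -0.69 ± 0.09, adjusted p = 5.16e-08). Timp3 stood at 306 and 478 CPM in telocytes and 906 and 678 CPM in PDGFRAlo cells, which do not overlap and did not pass the test (log2 -1.01 ± 0.46, adjusted p = 0.208). Its whole-mesenchyme levels were 150 and 148 UMI CPM in telocytes, 365 and 429 in CD81-type and 197 and 184.5 in the remaining fibroblasts (log2 -1.07 ± 0.13, adjusted p = 1.40e-08).

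Timp1 was at 12.5 and 7.08 CPM in telocytes and 18.1 and 21.3 CPM in PDGFRAlo cells (adjusted p = 0.262). Timp4 had 0 counts in telocytes against 50 in PDGFRAlo cells, at least 13.8-fold lower (adjusted p = 0.0217, and up to 0.0972 without single stromal libraries). Timp4 was higher in endothelium, at 2.01 to 7.29 CPM, so the blood endothelium markers in the PDGFRAlo libraries moved with it, and their part was not tested.

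The single-cell fit, which shares no library with the bulk sorts, called 7 of 38 genes higher in telocyte-gated cells (18.4%) and 20 lower (52.6%), where 10.1% of all 12445 genes were higher and 13.7% lower. The median log2 difference was -0.64 over the 38 genes and -0.07 over all genes. Of the 38 genes tested in both assays, 16 were lower in bulk telocytes and 20 in telocyte-gated cells, with 10 in common, which is 62.5% of the first and 50% of the second. These 10 were Mmp3, Mmp11, Mmp16, Adamts1, Adamts2, Adamts10, Adamts12, Adamts19, Adamtsl3 and Adamtsl5. Adamts18 was higher in both. The 62.5% is near the 52.6% of all 38 genes that were lower in telocyte-gated cells. Of the 16 genes lower in bulk, 2 were called higher in telocyte-gated cells, namely Mmp9 and Mmp13. Thinning the cells left 3 genes higher, of 33 tested.

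Blood and lymphatic endothelium differed in several ADAMTS genes and TIMPs. In bulk, 13 of 45 genes (28.9%) were higher in blood endothelium and 5 (11.1%) were lower, where the same rule called 14.7% of all genes higher and 8.32% lower, so the lower share is near the background. The ADAMTS genes gave 7 of the 13 higher genes, with a median log2 difference of 2.81 over the 17 tested. Of the 8 pericyte markers 6 were also higher and 1 lower in the blood libraries, and of the 8 smooth muscle markers 4 were higher and 0 lower. Their summed levels overlapped, at 125 and 260 CPM (blood) and 180 and 245 CPM (lymphatic) for pericytes and at 139.5 and 270 CPM and 91.3 and 186 CPM for smooth muscle, and their part in the ADAMTS differences was not tested. Without lymphatic replicate 2 the counts fell to 5 higher and 2 lower. The calls that held in every alternative were Mmp15, Adamts1, Adamts7, Adamts8 and Adamts12 on the blood side and Adamts14 and Adamtsl1 on the lymphatic side. In whole mesenchyme 6 of 38 genes (15.8%) were higher in blood and 6 (15.8%) in lymphatic endothelial cells, where 14.3% of all genes were higher and 9.22% lower, so the higher share is near the background. All 6 genes higher in blood endothelial cells were also higher in bulk, and they make up 50% of the 12 bulk calls among genes tested in both assays. Of the 6 lower genes 3 were lower in bulk, which is 60% of the 5 bulk calls.

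**Figure D4:**
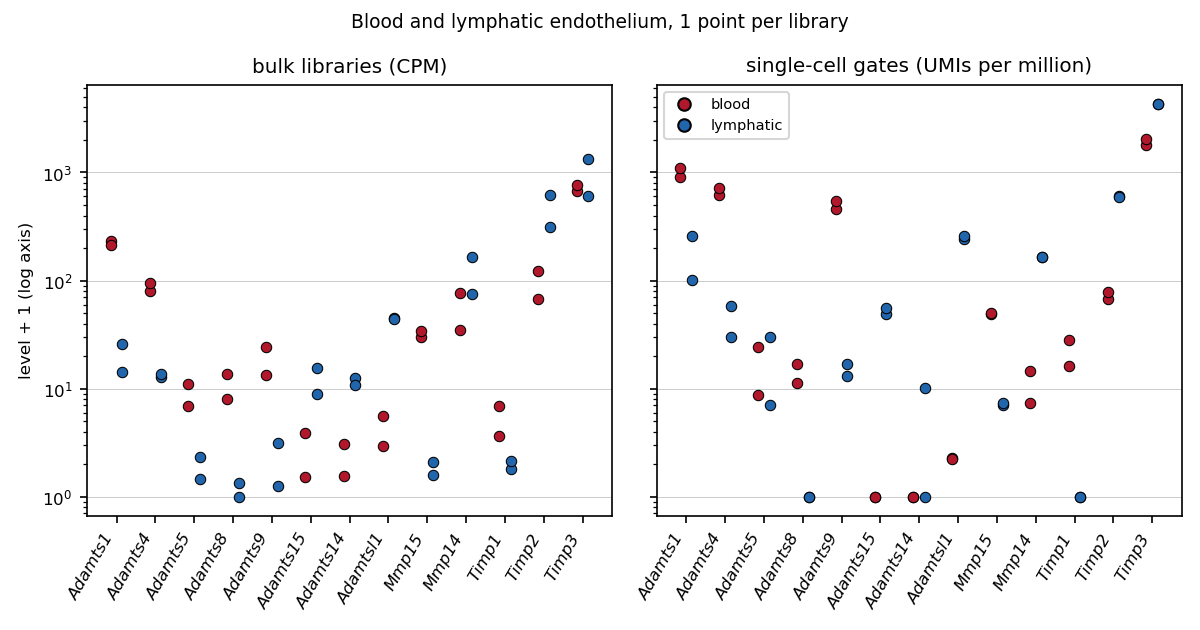
Levels of selected genes in blood (red) and lymphatic (blue) endothelium, 1 point per library, in the bulk libraries (CPM) and in gated whole-mesenchyme cells (UMI CPM), each plus 1 on a log axis. Adamts1, Adamts4 and Adamts9 lie higher in blood and Adamtsl1 and Timp2 higher in lymphatic endothelium in both panels.

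On the blood side, Adamts1 was at 904.5 and 1105 UMI CPM in blood and at 99.6 and 259.5 in lymphatic endothelial cells (log2 2.78 ± 0.19, adjusted p = 4.59e-14), and its bulk difference was 3.54 ± 0.58 on the log2 scale (adjusted p = 0.00392). Adamts4 was at 614 and 719 UMI CPM in blood and 57.3 and 28.8 in lymphatic cells (log2 4.21 ± 0.21, adjusted p = 4.42e-18). In bulk Adamts4 stood at 78.6 and 93.5 CPM in blood and 11.7 and 12.7 CPM in lymphatic endothelium (log2 2.81 ± 0.54, adjusted p = 0.00756, and up to 0.0638 without a lymphatic library). Adamts9 was at 457 and 545 UMI CPM in blood and 12.1 and 16.0 in lymphatic cells (log2 5.43 ± 0.27, adjusted p = 8.77e-18). The bulk values of Adamts9 were 23.5 and 12.4 CPM in blood and 2.16 and 0.269 CPM in lymphatic endothelium (log2 4.04 ± 1.00, adjusted p = 0.0203, and up to 0.122 without blood replicate 1 or lymphatic replicate 2).

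Adamts5 stood at 5.98 and 10.1 CPM in blood and 1.35 and 0.471 CPM in lymphatic endothelium (log2 3.26 ± 0.59, adjusted p = 0.00577, and 0.0589 without lymphatic replicate 2). Adamts7 stood at 33.4 and 18.4 CPM in blood and 2.03 and 0.74 CPM in lymphatic endothelium (log2 4.31 ± 0.56, adjusted p = 0.00196), though gated endothelial cells held few Adamts7 UMIs (2.55 and 4.94 UMI CPM in blood, 6.03 and 0 in lymphatic). Adamts8 stood at 7.05 and 12.7 CPM in blood and 0 and 0.336 CPM in lymphatic endothelium (log2 5.53 ± 0.88, adjusted p = 0.0036), and in whole mesenchyme it had 21 UMIs in blood against 0 in lymphatic cells, at least 2.83-fold higher. Adamts12 had 153 blood counts against 1 (51.5-fold higher, counting interval 9.11 to 2048, adjusted p = 0.00246). In the gated cells Adamts12 was at 1.27 and 1.24 UMI CPM in blood and 0 in lymphatic endothelium, far below the 44.3 and 43.5 of telocytes.

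Mmp15, a membrane-type MMP, was the clearest MMP of blood endothelium. It stood at 29.4 and 33.4 CPM in blood and 1.08 and 0.605 CPM in lymphatic endothelium (log2 5.27 ± 0.61, adjusted p = 0.00142). In whole mesenchyme Mmp15 was at 48.4 and 49.4 UMI CPM in blood and 6.03 and 6.41 in lymphatic cells (log2 3.24 ± 0.57, adjusted p = 3.50e-05), and glia held more, at 148 and 158. Mmp28 had 393 blood counts against 3 (44.1-fold higher, counting interval 15 to 215, adjusted p = 0.0122, and up to 0.0994 when single endothelial libraries were left out). Adamtsl2 stood at 13.5 and 18.8 CPM in blood and 1.08 and 0 CPM in lymphatic endothelium (log2 5.26 ± 1.41, adjusted p = 0.0272, and up to 0.162 without single libraries). Adamtsl4 and Adamtsl5 passed the test narrowly (adjusted p = 0.0496 and 0.0361) and lost it in 11 and 6 of the alternatives.

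On the lymphatic side, Adamtsl1, on chromosome 4 from 85514172 to 86428385, stood at 1.94 and 4.61 CPM in blood and 44.3 and 43.3 CPM in lymphatic endothelium (log2 -3.76 ± 0.47, adjusted p = 0.00182). Whole mesenchyme gave 1.27 and 1.24 UMI CPM in blood and 241 and 259.5 in lymphatic cells, 199-fold lower in blood by 2 against 161 UMIs (counting interval 54.3 to 1661). Lymphatic endothelium was the highest class for Adamtsl1. Adamts15 stood at 0.52 and 2.85 CPM in blood and 7.97 and 14.6 CPM in lymphatic endothelium (log2 -2.79 ± 0.70, adjusted p = 0.0216, and 0.132 without lymphatic replicate 2). The gated cells held 0 Adamts15 UMIs in blood against 33 in lymphatic cells, at least 27.3-fold lower. Adamts14 stood at 0.567 and 2.09 CPM in blood and 11.5 and 9.88 CPM in lymphatic endothelium (log2 -3.04 ± 0.57, adjusted p = 0.00695), without a call in the gated cells (adjusted p = 0.16).

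The TIMPs also differed between the vessels. Timp2 stood at 66.3 and 121 CPM in blood and 310 and 624 CPM in lymphatic endothelium (log2 -2.32 ± 0.49, adjusted p = 0.011, and up to 0.0683 without blood replicate 1 or lymphatic replicate 2). In the gated cells Timp2 was at 66.2 and 77.8 UMI CPM in blood and 609.5 and 593 in lymphatic cells (log2 -2.78 ± 0.15, adjusted p = 1.69e-16). Timp3 reached its highest level of any class in lymphatic endothelium, at 4272 and 4290.0 UMI CPM, against 1792 and 2035 in blood endothelium (log2 -0.89 ± 0.11, adjusted p = 5.34e-08). Glia held Timp3 at 2415 and 1926 UMI CPM and pericytes at 2575 and 1731, while macrophages held 8.88 and 3.94. The bulk endothelial libraries overlapped for Timp3, at 675 and 769 CPM in blood and 609.8 and 1326 CPM in lymphatic endothelium. Timp1 went the other way, with 34 UMIs in blood against 0 in lymphatic cells (at least 4.58-fold higher) and a bulk log2 difference of 2.11 (adjusted p = 0.0286, and up to 0.124 without single libraries). The median lymphatic-gated cell carried 4 blood endothelial markers beside 6 lymphatic ones. Of the 68 and 59 lymphatic-gated cells, 53 and 39 lay near the gate's limit. Whether the gate also held blood endothelial cells was not tested.

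**Figure D5:**
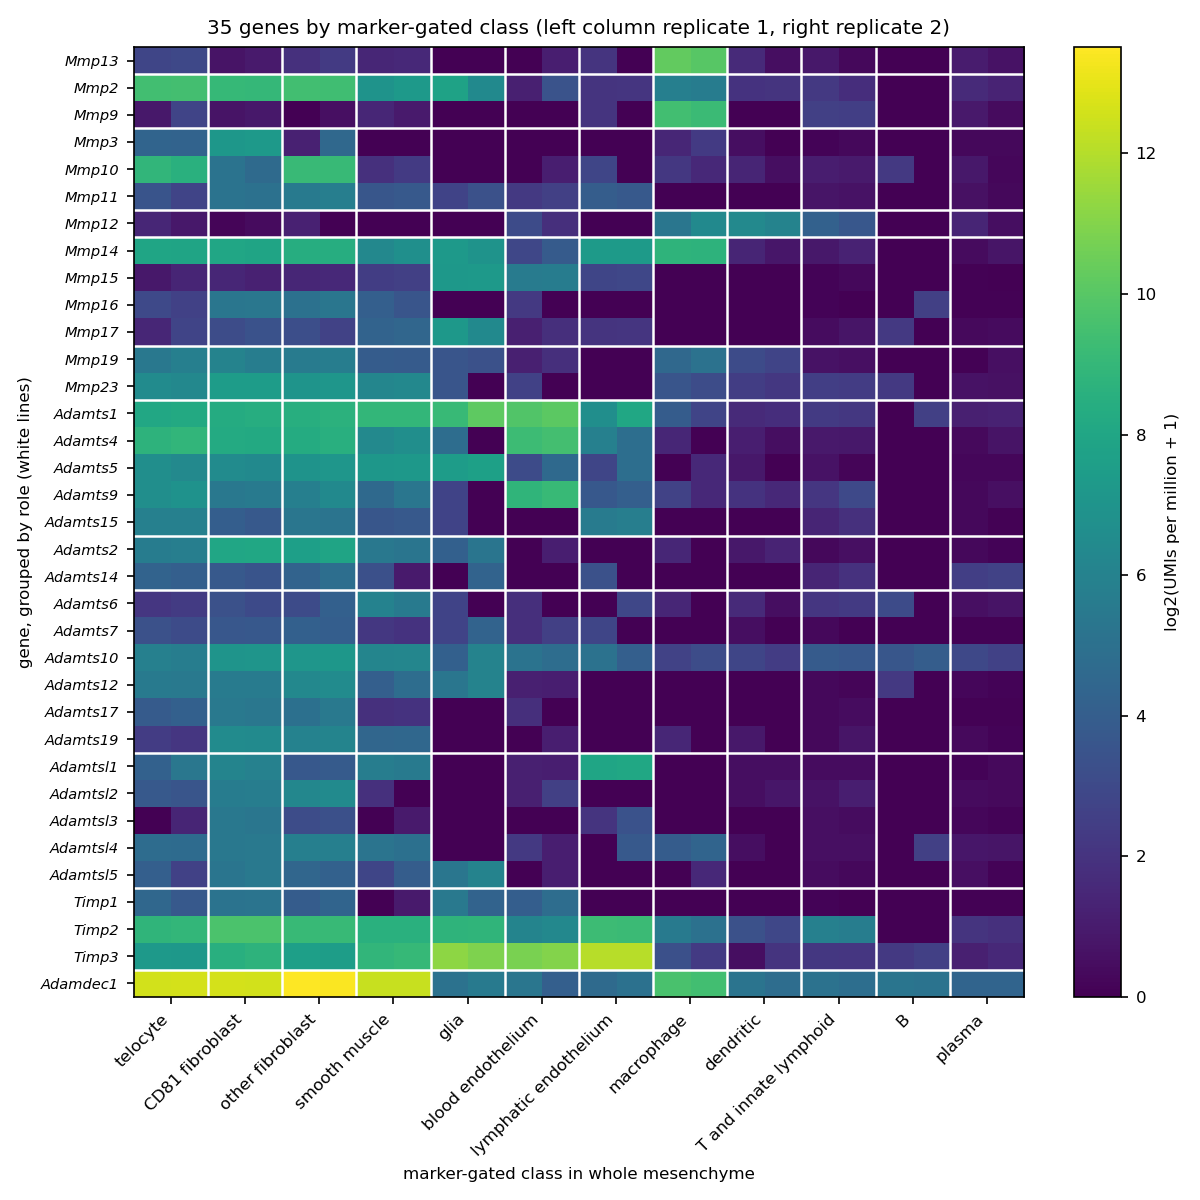
Heat map of the 35 genes with 100 or more UMIs in gated whole-mesenchyme cells (rows, grouped by role with white lines) by marker-gated class (columns, replicate 1 left and replicate 2 right). Most rows peak in the fibroblast columns, Timp3 in lymphatic endothelium, and Mmp9 and Mmp13 in macrophages.

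Over the 35 genes with 100 or more UMIs in gated whole-mesenchyme cells, the highest of the classes with 20 or more cells per library, by mean level, was CD81-type fibroblasts for 10, the remaining fibroblasts for 9, glia for 4, blood endothelium for 3, macrophages for 3, telocytes for 2 (Mmp2 and Adamts15), lymphatic endothelium for 2 (Timp3 and Adamtsl1), smooth muscle for 1 (Adamts6) and dendritic cells for 1 (Mmp12, with macrophages above them in replicate 2). The glial values rest on 36 and 24 cells. The remaining fibroblasts are a mixture defined by failing both other gates. Of the 51 listed genes, 16 had fewer than 100 UMIs in gated cells. Adamts16, Mmp1b, Mmp7, Mmp20, Mmp21 and Mmp24 had 0, and the others, Adamts3, Adamts8, Adamts13, Adamts18, Adamts20, Mmp8, Mmp25, Mmp27, Mmp28 and Timp4, had between 9 and 94. Adamts8 was at 19.3 and 19.8 UMI CPM in smooth muscle, 10.2 and 16.1 in blood endothelium and 1.7 and 2.51 in telocytes. In bulk, Mmp1a, Mmp1b and Adamts16 had no count, and Mmp20, Mmp21, Mmp24 and Adamts20 fell below the filter.

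Other genes of matrix turnover, from lists of activators and inhibitors, proteases and substrates, were tested in the same fits. Among 13 tested activators and other inhibitors, 0 were higher and 5 lower in bulk telocytes than in PDGFRAlo cells, beside 2.77% and 12.1% of all genes. Serpine2, an inhibitor of thrombin and plasminogen activators, was at 3.56 and 1.69 CPM against 394 and 593 CPM (log2 -7.56, adjusted p = 0.000254). Tfpi2, a plasmin inhibitor, fell from 48.3 and 22.7 CPM in PDGFRAlo cells to 0.428 and 0 CPM in telocytes (adjusted p = 0.000992). Serping1, a complement inhibitor, and the urokinase receptor Plaur were also lower. In whole mesenchyme 2 of 13 were higher and 9 lower, beside 10.1% and 13.7% of all genes.

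The list of other matrix proteases held 24 genes, counting Papln, which is a matrix protein and not a protease. Of these genes 6 were higher and 5 lower in bulk telocytes, beside the same 2.77% and 12.1%. The disintegrin proteases Adam12, Adam19 and Adam33 were higher: Adam19 was at 307.5 and 329 CPM in telocytes and 34.1 and 47.3 CPM in PDGFRAlo cells (log2 2.97, adjusted p = 0.000544), and Adam33 was at 60.6 and 31.7 CPM and 0.991 and 0.647 CPM (log2 5.82, adjusted p = 0.000492). Papln, an ADAMTS-related matrix protein, stood at 55.4 and 63.8 CPM in telocytes and 2.51 and 1.89 CPM in PDGFRAlo cells. The proprotein convertase Pcsk6 was at 1013 and 854 CPM against 92.6 and 169 CPM (log2 2.84, adjusted p = 0.00427). The fibroblast protease Fap was lower, at 0.570 and 0.242 CPM against 26.0 and 26.7 CPM (log2 -6.02, adjusted p = 0.000509), as was Htra3 (log2 -2.64, adjusted p = 0.012).

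Among 17 tested substrates and partners, 1 was higher and 5 lower in telocytes, beside 2.77% and 12.1% of all genes, so the higher count is near the background. Versican (Vcan), the classical substrate of the proteoglycanases, stood at 21 and 17.5 CPM in telocytes and 65.7 and 107 CPM in PDGFRAlo cells (log2 -2.16, adjusted p = 0.0066), elastin (Eln) was lower (log2 -4.17, adjusted p = 0.000644) and fibrillin Fbn2 was higher (log2 5.38, adjusted p = 0.00586). Between the vessels, 9 of the 17 were higher in blood endothelium and 2 lower, beside 14.7% and 8.32% of all genes, so the lower count is near the background. Vcan was at 2.81 and 1.68 CPM in blood and 0 and 0.0672 CPM in lymphatic endothelium, and the basement membrane collagens Col4a1 and Col4a2 were higher in blood by 4.26 and 4.56 on the log2 scale (adjusted p = 0.00141 and 0.00122).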

How the data were processed

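The deposited bulk table holds whole-number read counts per gene symbol, aligned with STAR to mm10, per the submitters' processing notes. Which program, annotation and strand option produced the counts is not stated here by any label. The deposited single-cell files hold UMI counts per gene and barcode from Cell Ranger 2.1.1 (sorted library) and 3.0.2 (whole mesenchyme), per the submitters' processing notes. The 26 rows of the bulk table whose names are dates were left out (0.131 to 0.523% of counts).

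Bulk counts were tested with edgeR 4.0.16 (R 4.3.3, limma 3.58.1) by quasi-likelihood with TMM scaling, filterByExpr, 4 group means and Benjamini-Hochberg adjustment over 14893 genes (threshold 0.05, residual degrees of freedom 4, common biological coefficient of variation 0.381). CPM use the TMM-scaled library sizes, and levels per kilobase use GENCODE M21 exonic length. Counting intervals are 95% and cover counting error only, and the floor for a group at 0 is 3 counts over the group.

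Single cells (scanpy 1.11.5, Python 3.11.15) were kept with 500 or more genes, under 10% mitochondrial UMIs and a Scrublet score under 0.25. That score replaced the automatic threshold, which marked 6 of 6226 cells in a library, and was chosen after seeing the data. It removed 45, 98 and 113 cells. A class needed 3 detected markers and a lead of 2 over the next list, a rule set after the files were seen, and 20.2% and 20.6% of whole-mesenchyme cells stayed ungated. UMIs were summed per library and class (12 classes of 20 or more cells, 24 profiles) and tested with edgeR with TMM scaling and library as a block. The quoted UMI CPM are not TMM-scaled. The spread was shared over the 12 classes of the same 2 libraries (residual degrees of freedom 11, common biological coefficient of variation 0.0635). In these tests the gated fibroblasts stand for the unweighted mean of the CD81-type and remaining classes on the log scale. The sorted library has no replicate and no test.

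Named genes are all 52 members. Bulk values are given for those with a mean of 50 CPM or more in a population or called with a log2 difference over 1 between the stromal or endothelial sorts, and class values for those with 100 or more UMIs, with a few others for context. The members and lists were chosen with earlier results of these data known. Both tests were also run on simulated counts with known changes, drawn with mean levels and spread taken from these data. Alternatives were DESeq2 1.42.0, other scaling, no filter, a replicate block, only the compared libraries, leaving out each library, a stricter gate and thinned cells. Of the partner-list genes that passed the test between the stromal sorts, 1 is not reported here.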

Additional observations from a re-analysis of the deposited data

How the results depend on the processing

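Of 252 recomputed counts of calls and values of single genes, 91 counts stayed the same and 15 counts moved by more than 1.5 times. The other 146 were single-gene differences in 1 whole-mesenchyme library alone, and none reversed its sign. With 2 libraries the rule used for them could flag only a reversal, so they say nothing about how stable the size was. No called bulk gene changed sign. Uncalled genes did so under some alternatives: Mmp2, Mmp10, Adamts4, Adamts9, Adamts13, Adamtsl1 and Adamdec1 between the stromal sorts, Mmp2, Mmp10, Mmp23, Mmp25, Mmp27, Adamts6, Adamts17, Adamtsl3, Timp3 and Adamdec1 between the endothelial sorts, and Mmp25 between stroma and endothelium. For telocytes against PDGFRAlo cells the single higher call became 2 with no filter on low counts, 2 with only the 4 libraries compared and 2 with DESeq2, and it ranged from 0 to 2 when single libraries were left out. The 20 lower calls ranged from 10 to 20 in that check. For blood against lymphatic endothelium the 13 higher calls became 20 with no filter and ranged from 5 to 12 without single libraries, and the 5 lower calls became 8 with no filter and 10 with DESeq2 and ranged from 2 to 6. The 7 genes higher in telocyte-gated cells became 3 after thinning to equal depth, which leaves 33 genes tested. The causes of these shifts were not tested, apart from the smaller or larger number of genes or libraries each alternative uses. Counts for stroma against endothelium stayed between 29 and 33 higher and 5 and 7 lower.

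Replicate numbers are shared between groups, but same-numbered libraries deviated together only weakly (r = 0.098 for telocytes and PDGFRAlo cells, 0.195 for blood and lymphatic endothelium, -0.103 for PDGFRAlo cells and lymphatic endothelium), so they were not taken as pairs. With a replicate block the calls were 1 higher and 19 lower in telocytes, 12 and 6 in blood endothelium and 32 and 7 in stroma. Without the library block the single-cell counts were 7 and 20, 6 and 6, and 4 and 30, as with it. A whole-mesenchyme library alone leaves no residual degrees of freedom and was given no test. Depth limits the genes under 100 UMIs and the glial and pericyte values.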
